A study of Mus musculus with 8 samples.

Results

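Chromatin accessibility was examined at 10 genes for ligands and surface molecules through which dendritic cells stimulate or restrain T cells: Cd80, Cd86, Icosl, Cd274 and Pdcd1lg2 of the B7 family, Tnfsf4, Tnfsf9 and Cd70 of the tumour necrosis factor (TNF) family, the receptor gene Cd40, and Cd83. The genes were chosen for their function, with earlier results of these data known. Their regions are all those in the count table that overlap, or lie within 25 kb of, the RefSeq span of a gene on the mouse build GRCm38. This gave 85 of the 59906 regions, 13 of them promoter regions and 72 distal regions. A promoter region lay within 1 kb of a listed gene start. For Cd86, Cd40, Cd70, Tnfsf9, Tnfsf4 and Cd83, for which no start was listed, it lay within 1 kb of either end of the gene model and is called a gene-end region.

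The assay was ATAC-seq, in which a transposase inserts adapters into open DNA, on splenic type 1 conventional dendritic cells (cDC1) of the mouse, purified by sorting. The GTPase OPA1 drives fusion of inner mitochondrial membranes and keeps cristae in shape, and the design asks what its loss does to open chromatin in these cells. There were 4 OPA1KO libraries, from CD11c-Cre;OPA1 flox mice, and 4 WT libraries. In the first genotype the Cre recombinase is driven by the CD11c promoter, so deletion is not limited to cDC1, and the labels do not say whether WT mice carried Cre or how old the mice were. The labels do not tie libraries to animals either, so each p-value reflects the spread among these 8 libraries, part of which may be technical.

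Full activation of a naive T cell requires antigen on an MHC molecule together with a costimulatory signal. CD80 and CD86 give that signal through CD28 and are also bound by the inhibitory receptor CTLA-4, while PD-L1 (encoded by Cd274) and PD-L2 (encoded by Pdcd1lg2) restrain T cells through PD-1. OX40L (Tnfsf4), 4-1BBL (Tnfsf9) and CD70 prolong T cell responses, and CD40 on the dendritic cell receives help from CD4 T cells, a route by which cDC1 prime CD8 T cells against tumours.

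The RefSeq promoter table (GRCm38.p6) held 4 of the 10 genes: Cd80, Cd274, Icosl and Pdcd1lg2. Their promoters are shown because 3 of them lay wholly inside an accessible region and the fourth, of Pdcd1lg2, overlapped none. Each runs 5′ to 3′ on the plus strand from 250 bases before to 50 after the listed start, and capitals mark a motif match. The Cd80 promoter is chr16:38458683-38458982, that of Cd274 is chr19:29367188-29367487, that of Icosl is chr10:78069118-78069417 and that of Pdcd1lg2 is chr19:29410669-29410968.
Cd80: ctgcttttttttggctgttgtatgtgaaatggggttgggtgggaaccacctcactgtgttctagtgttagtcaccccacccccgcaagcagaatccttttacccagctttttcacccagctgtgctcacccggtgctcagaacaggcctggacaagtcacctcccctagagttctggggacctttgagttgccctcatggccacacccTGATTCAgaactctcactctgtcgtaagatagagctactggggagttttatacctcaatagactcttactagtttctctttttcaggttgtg
Cd274: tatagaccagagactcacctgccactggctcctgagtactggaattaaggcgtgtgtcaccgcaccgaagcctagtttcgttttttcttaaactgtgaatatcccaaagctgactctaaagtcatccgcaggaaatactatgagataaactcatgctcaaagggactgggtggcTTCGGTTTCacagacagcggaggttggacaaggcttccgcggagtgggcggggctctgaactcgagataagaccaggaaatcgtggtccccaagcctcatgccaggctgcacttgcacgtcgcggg
Icosl: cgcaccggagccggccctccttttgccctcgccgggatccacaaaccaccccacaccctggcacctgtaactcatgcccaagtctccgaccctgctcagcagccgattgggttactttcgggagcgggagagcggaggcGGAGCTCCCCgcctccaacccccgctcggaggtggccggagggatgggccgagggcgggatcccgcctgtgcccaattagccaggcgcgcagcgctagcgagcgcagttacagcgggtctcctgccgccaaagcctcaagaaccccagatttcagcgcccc
Pdcd1lg2: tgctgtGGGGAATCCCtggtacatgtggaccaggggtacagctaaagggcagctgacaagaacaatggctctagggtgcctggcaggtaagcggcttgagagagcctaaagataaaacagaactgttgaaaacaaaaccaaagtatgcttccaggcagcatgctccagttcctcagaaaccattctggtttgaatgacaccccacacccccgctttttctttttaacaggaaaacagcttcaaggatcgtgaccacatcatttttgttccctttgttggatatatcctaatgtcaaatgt

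Both strands were searched for 4 motifs: NF-κB by its consensus, PU.1 as GAGGAAGT, AP-1 as TGANTCA and IRF as GAAANNGAA. The Cd80 promoter held an AP-1 match, TGATTCA, at −42 to −36 from the start; TGANTCA was found in 7.81% of 32851 listed promoters. The Cd274 promoter held an IRF match on the minus strand at −76 to −68 from the start, a motif present in 8.56% of promoters. The NF-κB motif, present in 8.46% of promoters, matched at −111 to −102 from the Icosl start and at −244 to −235 from the Pdcd1lg2 start. The PU.1 letters, present in 3.2% of promoters, were not in these 4 windows. The Icosl promoter was the richest of the 4 in G and C, at 68.0% with 26 CpG sites, against a median of 52.7% and 7 CpG sites over all listed promoters. Cd274 had 52.7% and 15 CpG sites. Cd80 had 49.7% and Pdcd1lg2 46.0%, with 3 CpG sites each.

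Total counts were 4660826 to 7590578 per library, with a median of 42 counts per region and library. Levels are TMM-scaled CPM, the counts of a region relative to the scaled total of its library, and means carry the SD over the 4 libraries of a group. The region at an end of Opa1, the targeted gene, read 34.5, 41.3, 37.9 and 43.0 CPM in OPA1KO libraries and 47.0, 40.7, 42.8 and 37.8 CPM in WT libraries. Which exons were deleted is not stated in the labels, so this level is no check of the genotype. Of 8 cDC1 marker genes, 5 had a promoter or gene-end region, and their summed level was 157 to 186 CPM in OPA1KO and 163 to 186 CPM in WT libraries. Xcr1, Clec9a and Itgae had none, but had 4, 9 and 11 tested regions within 25 kb. The T cell list had such a region at 1 of 8 genes (Cd4), with 1.80 to 4.35 CPM in OPA1KO and 3.17 to 5.32 CPM in WT libraries. For monocyte and macrophage genes (13 of 14 with a region), the summed range was 173 to 200 CPM in OPA1KO and 181 to 222 CPM in WT libraries. Of these 13 regions 4 had positive log2 fold changes (at Adgre1, Fcgr1, Lyz2 and Ly6c2) and 9 negative ones, and edgeR, DESeq2 and limma-voom called none. At an unadjusted p under 0.05 edgeR passed 4 of the 13, all lower in OPA1KO (at C1qb, C1qc, Vcam1 and Hmox1), beside 4.07% of 11104 gene promoter regions taken once per gene, and 3.28% that passed as lower. DESeq2 passed 3 of the 13 and limma-voom 5. The C1qb and C1qc regions lie within 25 kb of both genes, so they are not independent. The part of monocytes and macrophages in the results on the ligand genes was not tested. For cDC2, plasmacytoid dendritic cell, B cell, NK cell, neutrophil and red cell genes, the summed ranges of the groups also overlapped. Within the cDC2 list, 5 of 6 regions had negative log2 fold changes, while that of Itgam averaged 23.5 CPM in OPA1KO and 14.4 CPM in WT libraries (0.71 ± 0.16, edgeR unadjusted p = 0.00014, adjusted p = 0.153). A change in the mix of sorted cells and a change in accessibility per cell cannot be told apart in these data. The Cre transgene may also differ between the groups, since its presence in WT mice is not stated, and its part was not tested.

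None of the 85 regions differed between OPA1KO and WT cDC1 after adjustment over all 59247 tested regions (edgeR quasi-likelihood test, adjusted p under 0.05; smallest adjusted p = 0.501). limma-voom also called 0 of the 85, and DESeq2 0 of the 84 to which it gave an adjusted p, which leaves out the Cd70 gene-end region. Over all tested regions edgeR called 12, or 0.0203%. At an unadjusted p under 0.05, 4 of the 85 regions passed, 2 higher and 2 lower in OPA1KO, against 6.38% of all tested regions, so the members' count was not above this background. The groups did not overlap in 5 of the 85 regions, 3 higher and 2 lower in OPA1KO, against 3.97% of all tested regions. The median log2 fold change (OPA1KO minus WT) was −0.03 over the 85 regions, with 37 above and 48 below 0. The 13 promoter and gene-end regions had a median of −0.05, with 38.5% above 0, beside −0.04 and 39.0% for all 13848 tested regions at gene starts. The 72 distal regions had a median of −0.03, with 44.4% above 0, beside 0.01 and 52.2% for the 45399 other tested regions. These sets are not defined alike. The other tested regions lie at no gene start, while the distal regions include some at starts of Pla1a, Adprh, Ncoa5 and Dnmt3l. Without regions at starts of other genes the distal median was −0.026. The promoter median turned positive without WT replicate 2 (0.022) or OPA1KO replicate 4 (0.034), and the distal median without OPA1KO replicate 1 (0.005) or with a window of 50 kb (0.012).

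**Figure D1:**
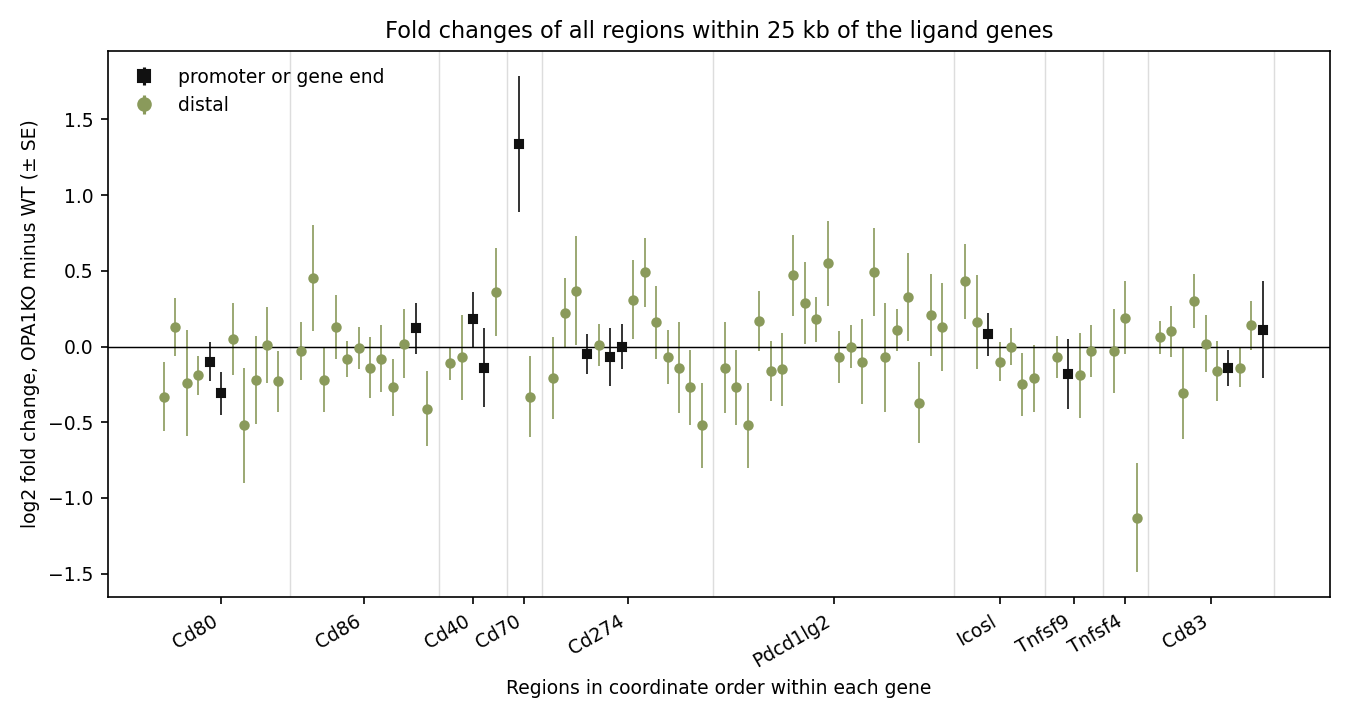
Log2 fold change (OPA1KO minus WT, bars ± SE of the edgeR fit) of every region within 25 kb of the 10 genes, in coordinate order within each gene; squares are promoter or gene-end regions and circles distal regions, and the 3 regions shared by the Cd274 and Pdcd1lg2 windows are drawn in both. Most values lie near 0, and the farthest are the Cd70 gene-end region (1.34) and a region near Tnfsf4 (−1.13), neither of which passed the test.

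CD80 is a ligand of CD28 and CTLA-4 that activated antigen-presenting cells display. Cd80 (chromosome 16, 38457430 to 38495958) had a promoter region that, with the one at the 5′ end of the Cd274 model, was the most accessible per length, and these did not differ beyond their spread. The region over the 5′ end of the gene model, at 38457174 to 38457538, read 29.3, 39.3, 32.4 and 29.2 CPM in OPA1KO libraries and 31.8, 40.5, 32.7 and 34.1 CPM in WT libraries. The groups overlapped, and the log2 fold change was −0.10 ± 0.13 (SE; edgeR adjusted p = 0.94). The second region, at 38458633 to 38459055, holds the Cd80 promoter sequence printed above with its AP-1 letters. It read 23.5, 22.1, 31.5 and 23.9 CPM in OPA1KO libraries and 26.6, 33.8, 32.1 and 33.5 CPM in WT libraries. In OPA1KO, 3 libraries lay below all WT libraries and replicate 3 lay among them. The means were 25.3 ± 4.24 CPM in OPA1KO and 31.5 ± 3.36 CPM in WT, a log2 fold change of −0.31 ± 0.14 that missed the threshold (unadjusted p = 0.0325, edgeR adjusted p = 0.743).

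Around Cd80, 6 of 9 distal regions had a negative log2 fold change, with a median of −0.22 and a range of −0.52 to 0.13. The highest of them, at 38452386 to 38452963, also lies at a start of the neighbouring gene Adprh, so its signal cannot be assigned to Cd80. It averaged 93.0 ± 16.0 CPM in OPA1KO and 106 ± 20.6 CPM in WT libraries (−0.19 ± 0.13). The distal region with the smallest p, at 38432952 to 38433472 and 24.0 kb from Cd80, lies at a start of Pla1a and averaged 6.47 ± 0.646 CPM in OPA1KO and 8.10 ± 1.97 CPM in WT libraries (−0.33 ± 0.23, edgeR adjusted p = 0.864). A region past the far end of the gene, at 38506106 to 38506416, had groups that did not overlap, with 8.66 ± 0.965 CPM in OPA1KO and 10.1 ± 0.941 CPM in WT libraries (−0.23 ± 0.20). It was chosen for naming after its values were seen.

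CD86 shares both receptors with CD80. Cd86 (chromosome 16, 36568956 to 36666158) had 1 gene-end region, at 36665738 to 36666242, and 10 of its 11 distal regions lay inside the gene. The gene-end region read 18.2, 17.4, 19.3 and 18.7 CPM in OPA1KO libraries and 17.9, 13.4, 14.8 and 21.5 CPM in WT libraries. The OPA1KO libraries lay within the wider WT range (0.12 ± 0.17, edgeR adjusted p = 0.943). The most accessible distal region, at 36626593 to 36627233 within the gene, averaged 30.8 ± 2.48 CPM in OPA1KO and 32.6 ± 2.01 CPM in WT libraries (−0.08 ± 0.12). The distal region with the smallest p, at 36675357 to 36675681, averaged 5.09 ± 0.498 CPM in OPA1KO and 6.75 ± 2.06 CPM in WT libraries (−0.41 ± 0.25, edgeR adjusted p = 0.843).

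ICOS ligand, encoded by Icosl (chromosome 10, 78069368 to 78079525), engages ICOS on activated T cells. Its promoter region, at 78069104 to 78070051, contained the GC-rich sequence above and read 40.5, 30.4, 42.4 and 31.6 CPM in OPA1KO libraries and 30.7, 44.9, 27.2 and 34.3 CPM in WT libraries. The OPA1KO libraries lay inside the WT range (0.08 ± 0.14, edgeR adjusted p = 0.96). The most accessible distal region, at 78087069 to 78087514, averaged 35.8 ± 3.56 CPM in OPA1KO and 35.7 ± 4.08 CPM in WT libraries. The distal region with the smallest p, at 78054627 to 78054994, lies at a start of Dnmt3l. It read 9.10, 8.33, 9.65 and 7.38 CPM in OPA1KO libraries and 5.17, 10.6, 4.85 and 4.66 CPM in WT libraries. WT replicate 2 stood above all OPA1KO libraries while the other WT libraries stood below them. The log2 fold change of 0.43 ± 0.25 (edgeR adjusted p = 0.824) became 0.81 without WT replicate 2 and was still not called (edgeR adjusted p = 0.24).

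**Figure D2:**
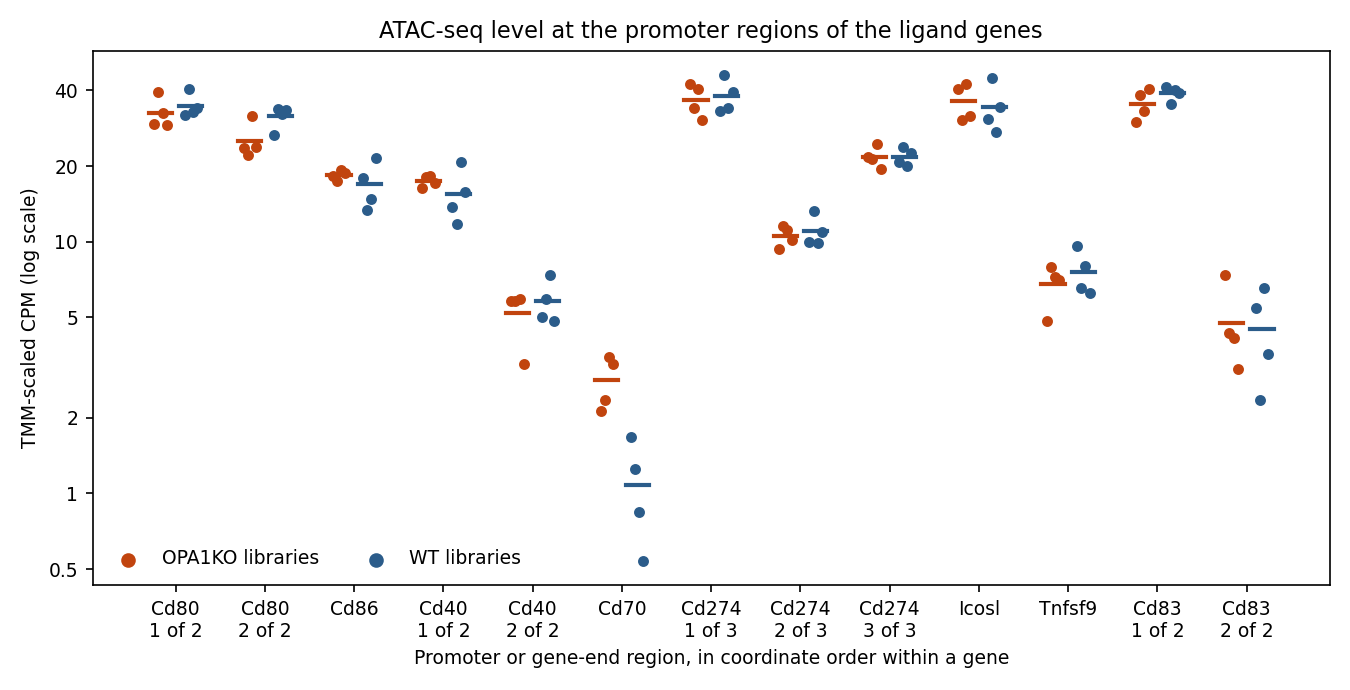
TMM-scaled CPM (log axis) of the 13 promoter and gene-end regions in each library, with OPA1KO libraries left of WT libraries; points are libraries and bars group means of 4. Groups overlap at every region except Cd70, which is also the least accessible, with means of 2.81 CPM in OPA1KO and 1.08 CPM in WT libraries.

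PD-L1 is the more widely displayed of the PD-1 ligands. Cd274 (chromosome 19, 29362107 to 29388095) had 3 promoter regions, all also within 1 kb of a start of the neighbouring gene Plgrkt, which encodes a plasminogen receptor. The region at 29367132 to 29367558, which holds the promoter printed above, read 21.7, 21.4, 24.4 and 19.5 CPM in OPA1KO libraries and 20.8, 23.7, 20 and 22.6 CPM in WT libraries. Both groups averaged 21.8 CPM, and the 95% interval of the log2 fold change was −0.30 to 0.29. The region at the 5′ end of the gene model, at 29361670 to 29362095, read 42.2, 33.9, 40.5 and 30.5 CPM in OPA1KO libraries and 33.0, 46.0, 34.0 and 39.5 CPM in WT libraries, again overlapping (−0.05 ± 0.13). The third, at 29366304 to 29366544, averaged 10.6 ± 0.991 CPM in OPA1KO and 11 ± 1.55 CPM in WT libraries (−0.07 ± 0.19). Summed over the 3 regions, Cd274 promoter signal was 69.1 ± 7.08 CPM in OPA1KO and 70.9 ± 9.08 CPM in WT libraries, a log2 fold change of −0.04 with a 95% interval of −0.23 to 0.16.

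Inside Cd274, 4 of 5 distal regions had positive log2 fold changes. The one with the smallest p, at 29374936 to 29375317 and 7.5 kb from the nearest listed start, read 7.96, 9.24, 8.58 and 8.85 CPM in OPA1KO libraries and 7.91, 4.68, 6.75 and 5.20 CPM in WT libraries. All OPA1KO libraries lay above all WT libraries though the lowest OPA1KO and the highest WT library nearly touched. The log2 fold change was 0.49 ± 0.23 (unadjusted p = 0.0377, edgeR adjusted p = 0.756). The most accessible distal region, at 29364101 to 29364523, averaged 30.1 ± 3.12 CPM in OPA1KO and 29.9 ± 4.66 CPM in WT libraries.

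PD-L2 is the other PD-1 ligand, displayed by fewer cell types. Pdcd1lg2 (chromosome 19, 29410919 to 29472927) had no region within 1 kb of its start and 20 distal regions, the most of the 10 genes, 11 of them inside the gene. Their log2 fold changes ran from −0.52 to 0.55 with 10 on each side of 0. The region with the smallest p, at 29448409 to 29448709, read 8.53, 4.71, 6.84 and 4.26 CPM in OPA1KO libraries and 3.19, 5.61, 3.59 and 4.30 CPM in WT libraries, with overlapping groups (0.55 ± 0.28, edgeR adjusted p = 0.795). The highest in CPM, at 29486508 to 29487031 past the end of the gene, averaged 33.5 ± 4.77 CPM in OPA1KO and 31.2 ± 5.93 CPM in WT libraries (0.11 ± 0.14). Per kb of region it stood at 61.8 CPM over all libraries, below 65.4 at 29430961 to 29431385 and 64.6 at 29462453 to 29462866. Summed over the 20 regions of Pdcd1lg2, the distal signal was 206 ± 22.5 CPM in OPA1KO and 199 ± 28.9 CPM in WT libraries (0.05 ± 0.10). The 3 regions between Cd274 and Pdcd1lg2 belong to both windows and had log2 fold changes of −0.14, −0.27 and −0.52.

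**Figure D3:**
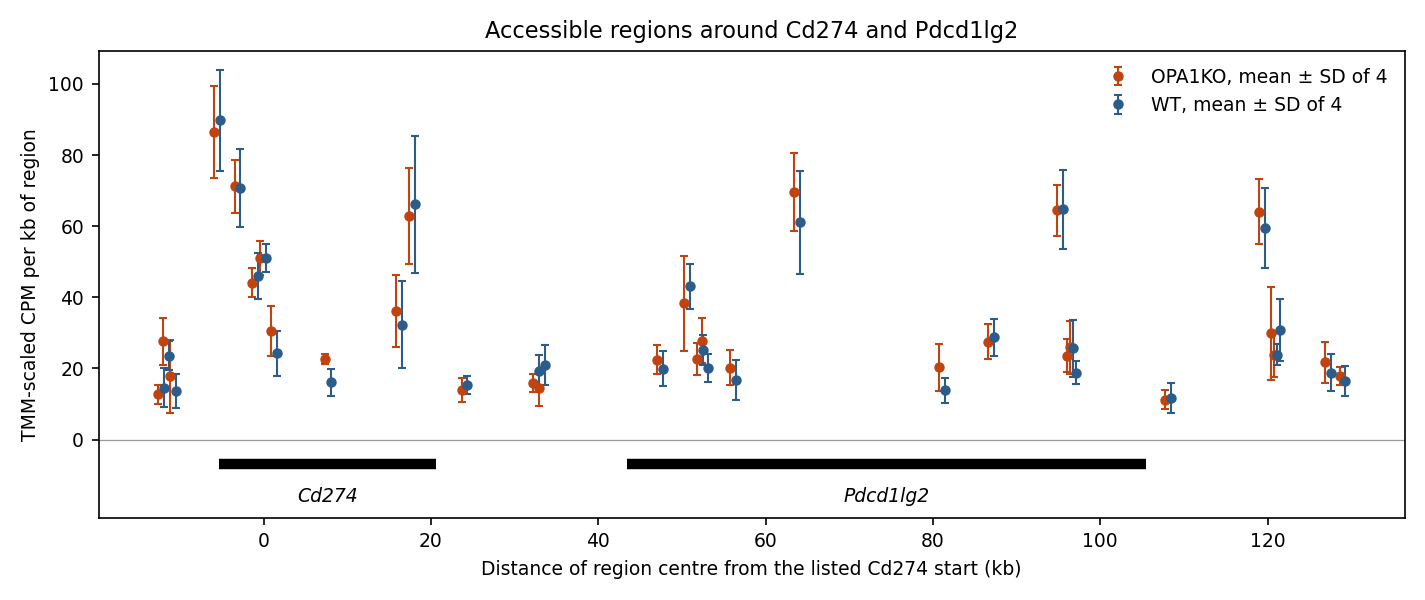
TMM-scaled CPM per kb of region (mean ± SD of 4 libraries) for the regions around Cd274 and Pdcd1lg2, by distance in kb from the listed Cd274 start; black bars mark the gene spans, and OPA1KO points stand just left of WT points. Accessibility was highest at the 5′ end of the Cd274 model, and the bars of the groups overlap at nearly all regions.

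CD40, a receptor of the TNF receptor family, is engaged by CD40 ligand on helper T cells and leads to the display of CD80, CD86 and CD70. Cd40 (chromosome 2, 165055614 to 165071654) had a region over a gene end at 165055063 to 165055782, which read 16.3, 18.1, 18.2 and 17.1 CPM in OPA1KO libraries and 13.7, 11.8, 20.7 and 15.8 CPM in WT libraries. The OPA1KO libraries lay inside the WT range (0.18 ± 0.18, edgeR adjusted p = 0.913). A weaker region at 165056387 to 165056697 read 5.83, 5.80, 5.90 and 3.28 CPM in OPA1KO libraries and 5.02, 5.92, 7.39 and 4.84 CPM in WT libraries (−0.14 ± 0.26), with OPA1KO replicate 4 below the rest. The most accessible distal region, at 165034406 to 165035104, lies at a start of Ncoa5 and averaged 40.8 ± 4.32 CPM in OPA1KO and 44.1 ± 3.47 CPM in WT libraries (−0.11 ± 0.11). The distal region with the smallest p, at 165074985 to 165075252, averaged 5.43 ± 1.96 CPM in OPA1KO and 4.24 ± 0.937 CPM in WT libraries (0.36 ± 0.29, edgeR adjusted p = 0.886).

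CD70 binds CD27 on T cells. Cd70 (chromosome 17, 57145997 to 57149777) had 1 gene-end region, at 57149610 to 57149822, and it had the highest log2 fold change of the 85 regions. It read 2.13, 2.36, 3.49 and 3.28 CPM in OPA1KO libraries, from 15, 13, 26 and 20 counts, and 1.67, 1.25, 0.844 and 0.538 CPM in WT libraries, from 11, 8, 4 and 3 counts. All OPA1KO libraries lay above all WT libraries. The means were 2.81 ± 0.669 CPM in OPA1KO and 1.08 ± 0.493 CPM in WT, a log2 fold change of 1.34 ± 0.45 (95% interval 0.42 to 2.26). It missed the threshold over all regions (unadjusted p = 0.00549, edgeR adjusted p = 0.535), and its adjusted p ran from 0.381 to 0.891 over the alternatives other than DESeq2, which gave it an unadjusted p of 0.00535 and no adjusted p. No WT library held more than 11 counts in it, so the level is known with little precision. The region passed the count filter owing to its OPA1KO libraries. Its fold change and the gap between the groups are therefore not independent of that filter. With no filter the log2 fold change was 1.34 (edgeR adjusted p = 0.529). The distal region of Cd70, at 57167102 to 57167384, went the other way without passing the test, with 4.59 ± 1.02 CPM in OPA1KO and 5.75 ± 1.40 CPM in WT libraries (−0.33 ± 0.27, edgeR adjusted p = 0.891).

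OX40 ligand, encoded by Tnfsf4 (chromosome 1, 161395438 to 161418206), sustains activated and memory T cells. The gene had no region within 1 kb of either end and 3 distal regions, all below the gene in coordinates. The nearest of them, at 161378615 to 161378804 and 16.6 kb from the gene, had the lowest log2 fold change of the 85 regions and the smallest p. It read 1.71, 1.45, 1.74 and 1.80 CPM in OPA1KO libraries, from 12, 8, 13 and 11 counts, and 4.56, 3.59, 3.38 and 3.23 CPM in WT libraries, from 30, 23, 16 and 18 counts. The groups did not overlap. The OPA1KO libraries lay close together, but at 8 to 13 counts each this closeness says little about precision. The means were 1.68 ± 0.156 CPM in OPA1KO and 3.69 ± 0.601 CPM in WT, a log2 fold change of −1.13 ± 0.36 that did not pass the test over all regions (unadjusted p = 0.00386, edgeR adjusted p = 0.501). The WT libraries alone sufficed for the region to pass the count filter, and the OPA1KO libraries alone did not. Its fold change and the gap between the groups are therefore not independent of that filter. With no filter the region had a log2 fold change of −1.13 (edgeR adjusted p = 0.497). Its neighbours were at 8.33 ± 2.12 CPM in OPA1KO and 7.28 ± 2.00 CPM in WT (161376362 to 161377055, 0.19 ± 0.24), and at 4.62 ± 0.899 CPM in OPA1KO and 4.67 ± 1.11 CPM in WT (161375307 to 161375532, −0.03 ± 0.28). Position alone does not link a region to its target gene.

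**Figure D4:**
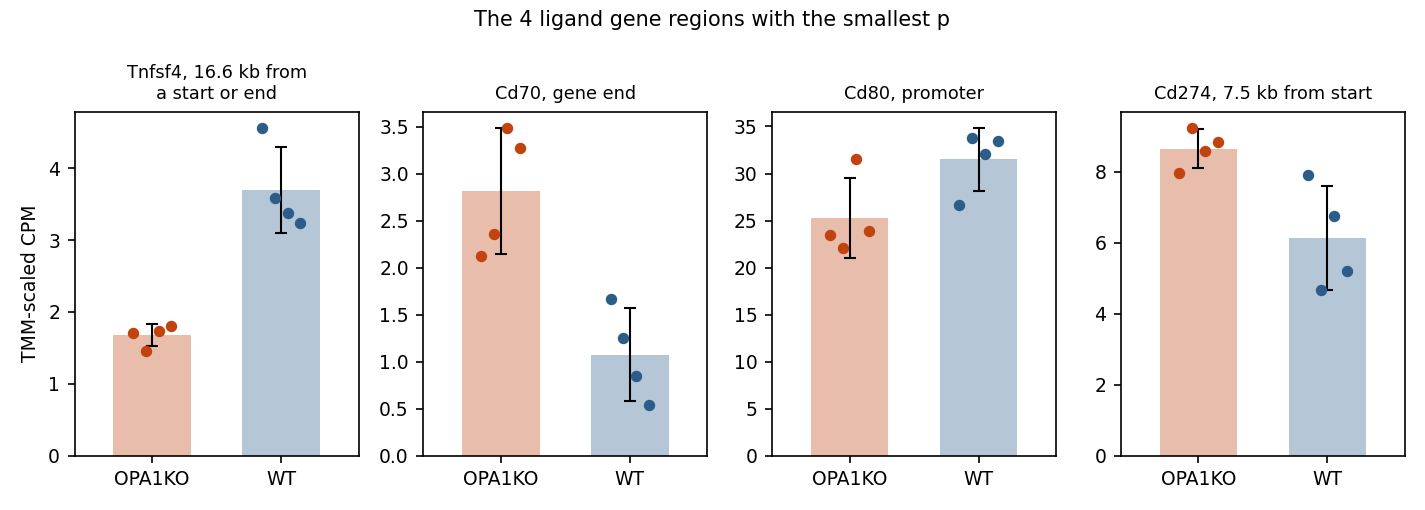
TMM-scaled CPM of the 4 regions with the smallest p among the 85, near Tnfsf4, Cd70, Cd80 and Cd274, with OPA1KO left of WT; points are libraries, bars means and error bars SD of 4. Groups are apart at Tnfsf4, Cd70 and Cd274 and overlap at Cd80, and none passed the test over all regions.

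4-1BB ligand, encoded by Tnfsf9 (chromosome 17, 57105287 to 57107758), costimulates CD8 T cells. Its gene-end region at 57105133 to 57105511 read 4.83, 7.97, 7.24 and 7.05 CPM in OPA1KO libraries and 9.58, 6.55, 8.02 and 6.28 CPM in WT libraries, with overlapping groups (−0.18 ± 0.23, edgeR adjusted p = 0.942). Its 4 regions all had small negative log2 fold changes, from −0.19 to −0.03. The highest in CPM, at 57096068 to 57096881, averaged 27.0 ± 1.14 CPM in OPA1KO and 28.3 ± 4.06 CPM in WT libraries (−0.07 ± 0.14). Per kb of region it stood at 34.0 CPM over all libraries, below 40.2 at 57112874 to 57113343. The distal region with the smallest p, at 57108809 to 57109098, averaged 5.60 ± 2.07 CPM in OPA1KO and 6.37 ± 1.70 CPM in WT libraries (−0.19 ± 0.28, edgeR adjusted p = 0.949).

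CD83 marks mature dendritic cells and stabilises MHC class II and CD86 at the surface. Cd83 (chromosome 13, 43785112 to 43803133) had a region at each gene end. The stronger, at 43784875 to 43785632, read 29.8, 38.4, 33.1 and 40.5 CPM in OPA1KO libraries and 41.4, 35.4, 40.3 and 39.1 CPM in WT libraries, with overlapping groups (−0.14 ± 0.12, edgeR adjusted p = 0.898). The other, at 43802801 to 43803115, averaged 4.75 ± 1.84 CPM in OPA1KO and 4.49 ± 1.88 CPM in WT libraries (0.11 ± 0.32). Among 8 distal regions, the one with the smallest p, at 43775126 to 43775584, read 13.9, 12.3, 12.9 and 15.1 CPM in OPA1KO libraries and 11.3, 12, 9.07 and 11.5 CPM in WT libraries. All OPA1KO libraries lay above all WT libraries, but the difference did not pass even unadjusted (0.30 ± 0.18, unadjusted p = 0.108, edgeR adjusted p = 0.833). The most accessible distal region, at 43765150 to 43765760, averaged 45.2 ± 3.48 CPM in OPA1KO and 43.4 ± 3.21 CPM in WT libraries (0.06 ± 0.11).

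Compared per kb of region over all 8 libraries, the promoter and gene-end regions of the genes differed in level. The highest were the first Cd80 region, at 92.5 CPM per kb (library range 80.2 to 111), and the region at the 5′ end of the Cd274 model, at 88.1 (71.8 to 108), which do not differ beyond their spread. The second Cd80 region followed at 67.3 (52.4 to 80.2), then the Cd274 region with the printed promoter at 51.1 (45.8 to 57.3), Cd83 at 49.2 (39.4 to 54.6) and the third Cd274 region at 45.0 (39.1 to 55.2), whose ranges overlap. Icosl stood at 37.2 (28.7 to 47.4) and Cd86 at 35 CPM per kb (26.6 to 42.7), also overlapping. Cd40 was at 22.9 (16.5 to 28.8) and 17.7 CPM per kb (10.6 to 23.8), Tnfsf9 at 19.0 (12.8 to 25.3) and the weaker Cd83 gene end at 14.7 (7.45 to 23.5). Cd70 was lowest at 9.17 CPM per kb (2.54 to 16.4), and Pdcd1lg2 and Tnfsf4 had no such region. The gene-end regions may lie at the 3′ end of a gene, since the strand of those 6 genes was not used here.

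Summed per gene, none of the 8 genes with promoter or gene-end regions was called by edgeR, beside 0.0081% of 12339 genes tested (1 gene, and 37 without WT replicate 2), and DESeq2 and limma-voom called none of them. At an unadjusted p under 0.05, Cd70 was higher (edgeR unadjusted p = 0.00402, adjusted p = 0.674) and Cd80 lower in OPA1KO (edgeR unadjusted p = 0.046, adjusted p = 0.944), beside 5.17% of all genes. For Cd70 the sum is the same 1 gene-end region as above. The Cd80 sum includes the region with the AP-1 letters described above. These sums are therefore not separate results. The summed Cd80 level was 57.8 ± 5.73 CPM in OPA1KO and 66.3 ± 6.62 CPM in WT libraries, a log2 fold change of −0.20 ± 0.10. The 95% intervals of the other genes reached at most 0.43 upward, for Cd86, and −0.66 downward, for Tnfsf9. Summed over distal regions, none of the 10 genes was called by edgeR, DESeq2 or limma-voom, beside 0.037% of 16195 genes tested by edgeR (6 genes, and 22 without WT replicate 2). None reached an unadjusted p under 0.05 either, beside 5.49% of all genes. Distal log2 fold changes ran from −0.33 ± 0.26 for Cd70 and −0.16 ± 0.10 for Cd80 to 0.05 ± 0.10 for Pdcd1lg2. The narrowest 95% interval, for Icosl, was −0.19 to 0.12, and the widest, for Cd70, was −0.87 to 0.22.

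Genes of the same pathway were read at 1 promoter or gene-end region each, and edgeR, DESeq2 and limma-voom called none of these regions. At an unadjusted p under 0.05 edgeR passed 1 of 17 regions of other ligands and 1 of 20 of CD40 and NF-κB signalling, both lower in OPA1KO, and none of the rest; among all 11104 such regions 452 passed, 364 of them lower, so these counts are near the background. Of 17 regions at other dendritic cell ligands (of 23 genes), 6 had positive and 11 negative log2 fold changes, with a median of −0.09, beside −0.04 for all 11104 such regions. Among them Tnfsf13b, which encodes the B cell survival factor BAFF, was at 33.7 ± 1.74 CPM in OPA1KO and 40.6 ± 1.99 CPM in WT libraries, without overlap (−0.27 ± 0.11, edgeR adjusted p = 0.71). Nectin2, a ligand of CD226, was at 28.2 ± 2.19 CPM in OPA1KO and 33.5 ± 3.86 CPM in WT libraries (−0.25 ± 0.13). All 20 genes of CD40 and NF-κB signalling had a region, 6 with positive and 14 with negative values and a median of −0.02. The smallest p there were at Birc3, an inhibitor of apoptosis that binds TRAF proteins (−0.17 ± 0.08, edgeR adjusted p = 0.753), and Relb, a subunit of the alternative NF-κB pathway (−0.15 ± 0.08, edgeR adjusted p = 0.784). Among 15 regions of maturation genes, 5 were positive and 10 negative with a median of −0.05. Il12b, a subunit of interleukin 12 that drives type 1 T cell responses, was at −0.27 ± 0.20, and Ccl22, a chemokine that attracts regulatory T cells, at −0.33 ± 0.27. Of the 8 T cell receptors for these ligands only 3 had a region, as a group at a median of 0.08, among them Ctla4 (0.32 ± 0.29) and Cd28 (−0.20 ± 0.29).

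The window of 25 kb set which regions were counted. Just inside it lay the Pla1a region at 24.0 kb from Cd80 and a region 23.3 kb from Pdcd1lg2, at 4.39 ± 0.601 CPM in OPA1KO and 4.05 ± 1.04 CPM in WT libraries. Just outside lay a region 25.6 kb from Icosl, at 5.66 ± 1.12 CPM in OPA1KO and 6.76 ± 0.597 CPM in WT libraries. Another lay 25.6 kb from Pdcd1lg2, inside Cd274, at 26.1 ± 5.58 CPM in OPA1KO and 27.4 ± 8.0 CPM in WT libraries.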

How the data were processed

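The source was a single table with ATAC-seq counts of 8 libraries, 4 per genotype, in a common set of regions. The values are the counts as deposited by the authors, whole numbers with no normalization. The submitters' processing notes name mm10/GRCm38 as the build and, as tools, MACS2 2.1.0.20150603, bedtools, SAMtools, Picard 1.65 and cutadapt 1.9. How the region set was made, what was counted per region and any shift for the transposase are not given in the sources used here, and their effect on the values was not tested. Whether starts count from 0 or 1 is not given, so coordinates are printed as in the table.

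Regions were mapped to RefSeq gene spans on GRCm38. Of 21887 protein-coding models, 17492 had a start in the promoter table, and for 4395 either end was used. filterByExpr left 59247 regions and removed 659; all 85 member regions stayed. The main test was edgeR 4.0.16 run under R 4.3.3 (TMM factors 0.946 to 1.03, robust glmQLFit, glmQLFTest), over all 8 libraries with no covariates, with Benjamini-Hochberg adjustment over all regions, or over all genes for sums, and calls at 0.05. The common dispersion was 0.0270. Intervals are 95% from the same fit. The test was run on simulated data with known changes, placed at regions or genes taken at random. How many of them it called is not given here, so that run does not bear on the member regions. Alternatives were DESeq2 1.42.0, limma-voom (3.58.1), other size factors, filters, windows and promoter distances, a replicate block and leaving out each library. The members and lists were chosen with earlier results of these data known. The text names, for each gene, every promoter region, the distal regions with the smallest p and the highest mean CPM, up to 2 genes per list, and regions at the window's edge. Precision is limited by 4 libraries per group and, in shallow regions, by few counts: among the 85 regions the SE ran from 0.11 to 0.45. No batch is given in the labels.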

Additional observations from a re-analysis of the deposited data

Results flagged for a closer look

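In 3 of 100 groups of 4 libraries examined, 1 library stood far from the other 3; chance alone gives about 1 in 20. At the weaker Cd40 gene-end region, OPA1KO replicate 4 was at 3.28 CPM while the other OPA1KO libraries were at 5.80 to 5.90 CPM. At the region near Icosl that lies at a Dnmt3l start, WT replicate 2 was at 10.6 CPM while the other WT libraries were at 4.66 to 5.17 CPM. WT replicate 2 was also the highest WT library in 41.2% of the 85 regions, against 29.8% of all tested regions, and had the highest summed level of monocyte and macrophage genes (222 CPM); the part of these in the result was not tested. At the most accessible distal region of Cd83, WT replicate 1 was at 38.6 CPM while the other WT libraries were at 44.5 to 45.7 CPM.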

How the results depend on the processing

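The count of 0 called among the 85 regions held under DESeq2 (84 with an adjusted p), limma-voom, other size factors, other filters, the replicate block and each fit that left out 1 library, and so did 0 called genes by either sum, also under the other windows and promoter distances. Between 2 and 7 of the 85 regions passed unadjusted in these fits. Without WT replicate 2, 7 passed, beside 5084 of all 59409 tested regions. Without WT replicate 4, 2 passed, beside 3290 of all 59501. Neither count was above its background. Over all tested regions the count of 12 was less stable: DESeq2 called 43, limma-voom 4 and the fit with a replicate block 1. Leaving out 1 library gave 1 to 68 calls, with 68 without WT replicate 2, 22 without OPA1KO replicate 4, 4 without OPA1KO replicate 2, and 1 without WT replicate 3 or 4 or OPA1KO replicate 1 or 3; the cause was not tested. Over all genes, summed promoter regions gave 1 call, against 2 by DESeq2, 0 by limma-voom and with the replicate block, and 0 to 37 without 1 library; summed distal regions gave 6, against 17 by DESeq2, 4 by limma-voom, with the replicate block or with total counts, 3 with a window of 50 kb, and 2 to 22 without 1 library. Both were highest without WT replicate 2. Deviations of same-numbered libraries correlated at −0.132, −0.011, −0.0775 and −0.0722, and those of libraries with unlike numbers at −0.246 to 0.225. Deviations were taken from the mean of each group of 4, so these correlations cannot decide whether libraries were paired. Of 32 named regions, 21 kept their direction in all 15 settings, among them those near Cd70 (1.13 or more), Tnfsf4 (−1.19 to −1.0), Cd80 (−0.44 to −0.26) and inside Cd274 (0.38 to 0.66). These examples are the member regions with the smallest p, and the settings reuse the same libraries. A kept direction is therefore no separate support, and its share over all tested regions was not computed. The Cd70 and Tnfsf4 regions rest on 3 to 30 counts per library, which limits them more than the regions at strong promoters.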
